A study of Mus musculus with 2 samples.

Results

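The genes whose symbols begin with Ube2 and a further letter encode, with few exceptions, the ubiquitin-conjugating (E2) enzymes, and their transcript levels were compared between E14 mouse embryonic stem cells given a control shRNA and E14 cells given a USP21 shRNA. Of the 23889 gene symbols measured, 37 matched this rule, which used the symbol alone and no measured value. USP21 is a deubiquitinase, an enzyme that takes ubiquitin off proteins, and the study sequenced RNA to see how the cells' expression profile looked after its knockdown. E14 is a stem cell line whose labelled origin is the 19/Ola mouse. Both groups were grown without feeder cells on gelatin in medium with 15% serum and 1000 U/ml of LIF, the cytokine that keeps such cells undifferentiated, and were transfected and harvested 3 days later. The control cells are labelled as of normal genotype and the others as USP21 knockdown. Each group is 1 library, so no difference below could be tested against replicate error. The labels do not say which USP21 shRNA was used.

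Ubiquitin is passed along a chain of 3 kinds of enzyme. An activating enzyme (E1) loads it onto a cysteine of an E2, and the E2, usually held by a ligase (E3), hands it to the target protein. The E2 largely decides whether a single ubiquitin or a chain is built and through which lysine the chain is linked, and a few E2s carry the related modifiers SUMO, NEDD8 or ISG15 instead. In embryonic stem cells ubiquitin turns over pluripotency factors and mitotic regulators and marks histones, and deubiquitinases such as USP21 reverse these marks.

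The part of the enzyme that receives the modifier can be seen in the coding sequence. The stretches below, shown so that the close relatives and the members with the largest differences can be compared, run from the codons of the His-Pro-Asn signature of E2s to 3 codons past the active-site cysteine, whose codon is in capitals. They are from GENCODE M21 transcripts on GRCm38.
Ube2a: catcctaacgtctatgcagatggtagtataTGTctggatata
Ube2b: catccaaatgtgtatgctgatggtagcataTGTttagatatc
Ube2d1: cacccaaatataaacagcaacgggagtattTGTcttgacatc
Ube2d3: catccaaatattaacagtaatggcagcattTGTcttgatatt
Ube2l3: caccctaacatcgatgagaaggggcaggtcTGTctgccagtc
Ube2l6: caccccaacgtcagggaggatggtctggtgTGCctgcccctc
Ube2t: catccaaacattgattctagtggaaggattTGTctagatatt
Ube2w: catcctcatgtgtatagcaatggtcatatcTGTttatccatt

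All 37 symbols had a transcript in that annotation. In 20 of them the coding sequence held His-Pro-Asn codons with a cysteine codon 8 positions after the asparagine, and in 2, Ube2h and Ube2k, the cysteine stood 9 positions after it. The 3 Ube2e genes had a cysteine in place of the proline, and Ube2w, shown above, had His-Pro-His. None of these 4 patterns was found in the other 11 (Ube2cbp, Ube2j1, Ube2j2, Ube2o, Ube2q1, Ube2q2, Ube2ql1, Ube2u, Ube2v1, Ube2v2 and Ube2z). That group includes Ube2v1 and Ube2v2, which are known to lack the active-site cysteine and to act as partners of Ube2n, and Ube2cbp, which is a ligase and not an E2 despite its symbol. The coding sequences of Ube2a and Ube2b were 77.6% identical, those of Ube2d1 and Ube2d3 77.0%, and those of Ube2l3 and Ube2l6 62.3%.

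The deposited values were FPKM, fragments scaled to transcript length and to the mapped fragments of the library. Their sum was 613617 for the control shRNA and 543206 for the USP21 shRNA. The files give no counts, so depth was unknown, although steps among the lowest values gave a depth ratio of control to USP21 shRNA near 1.24. Usp21 itself had an FPKM of 26.2 in the control cells and 3.49 in the knockdown cells, a log2 ratio of -2.87. The 10 stem cell markers were all detected, the lowest at 59.0 in the control and 30.2 with the USP21 shRNA, and 9 of 10 were lower with the USP21 shRNA (7 of 10 with both libraries scaled to equal sums), among them Nanog (467 to 258) and Tfcp2l1 (59.0 to 30.2). Of 7 fibroblast markers only Thy1 reached an FPKM of 1 (17.3 to 5.29), Lum was listed at 0 in both libraries, and their sum was 18.3 and 6.04. Of the 5 primitive endoderm markers 3 were above 0 and 2 below, from Pdgfra at 2.48 and 4.22 (log2 ratio 0.75, past 1.5-fold) to Dab2 at 23.1 and 16.4 (-0.50), and their sum was 43.9 and 40.7. Whether these shifts had a part in the E2 values was not tested, and fewer cells of a type and less RNA per cell cannot be told apart in such libraries.

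As deposited, most E2 genes differed little between the libraries, and fewer did so at equal sums, as given below. A floor of FPKM 1, to be reached in either library, was passed by 32 of the 37 members and by 11927 of all symbols, and log2 ratios of USP21 shRNA over control were taken after adding 0.1 to each FPKM. Of the 32 members, 28 lay within 1.2-fold in either direction, a limit chosen after the values had been seen, against 55.9% of all genes past the same floor. Members were more abundant than most genes, with a median FPKM of 35.6 in the control library against 11.8. Among genes with an FPKM of at least 5 the figures were 27 of 30 members and 60.7%. That floor does not match the genes to the members in level, and whether level had a part in the narrow spread was not tested. The median log2 ratio of the 32 members was -0.04 (quartiles -0.15 and 0.14), beside 0.0031 for all genes (quartiles -0.22 and 0.24), and over all 37 members it was -0.04 as well. The SD of the ratios was 0.27 across members and 0.48 across all genes past the floor, again without matching for level. Levels in the 2 libraries correlated across the 32 members with a Spearman rho of 0.99, a description across genes that share both libraries.

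The scale mattered for the sign. With both libraries scaled to equal sums, the median of all genes moved from 0.0031 to 0.18, so every ratio below is about 0.18 higher on that scale. There 18 of the 32 members lay within 1.2-fold against 49.0% of all genes. Above 0 were 24 members and below 0 were 8, with 8525 of 12014 genes above 0. On the deposited scale 13 members were above 0 and 19 below, with 6015 of 11927 genes above 0. Ratios are therefore given as deposited and read against the median of all genes. That median does not hold at every level. As deposited, the median ratio of the genes nearest in level was 0.11 for Ube2l6 and -0.02 for Ube2t. It was -0.09 for Ube2l3 and -0.19 for Ube2s, which are more abundant. A ratio below 0 in an abundant gene can therefore be usual for its level, and no group median given here was matched for level.

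At least 1.5-fold lower with the USP21 shRNA was 1 of the 32 members, Ube2l6, against 6.46% of all genes (771 of 11927), and at least 1.5-fold higher was 0 of 32, against 7.77% (927 genes). At 2-fold the counts were 1 and 0, with 2.03% of all genes lower and 2.3% higher. The share of all genes called higher and lower turned to 14.2% and 3.87% at equal sums, while the members' counts were again 1 lower and 0 higher. Each gene's ratio was also set beside the 5th to 95th percentile of the ratios of the 500 genes nearest to it in level. Outside that range lay 1 of 32 members, Ube2t, against 10.6% of all genes. These ranges describe the 2 libraries and are no test.

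**Figure D1:**
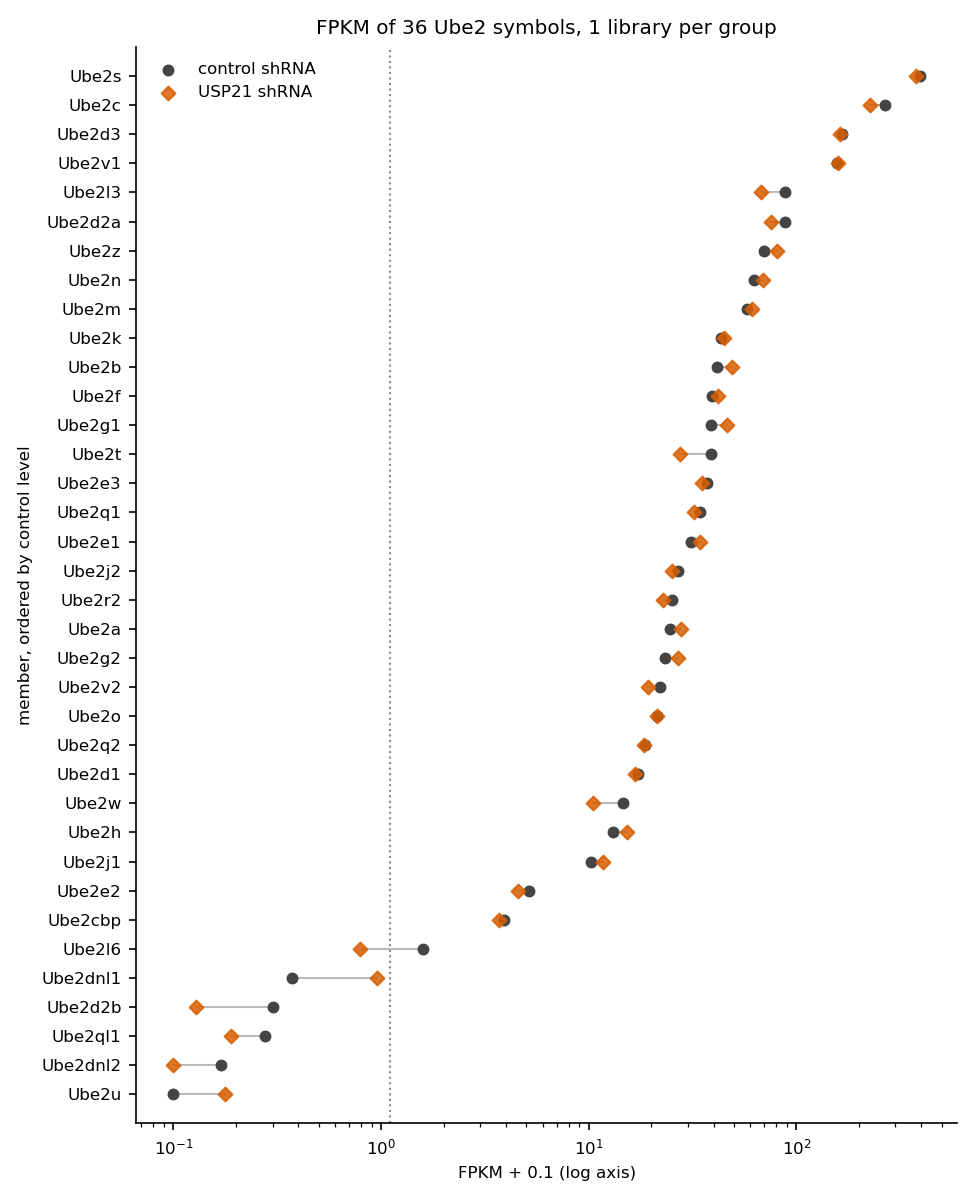
FPKM plus 0.1 (log axis) of 36 of the 37 Ube2 symbols in the control shRNA library (dots) and the USP21 shRNA library (diamonds), 1 library per group and ordered by the control level; the dotted line is the floor of FPKM 1. The paired points lie close together from Ube2s at 392 down to Ube2cbp at 3.80, with wider gaps at Ube2l3, Ube2t and Ube2w and among the 6 lowest symbols.

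The highest levels belonged to the pair that serves the anaphase-promoting complex, the ligase that sends mitotic regulators to the proteasome. Ube2s, which extends the chains, was at 392 in the control and 379 with the USP21 shRNA. Ube2c, which starts them, was at 268 and 227. Together they made up 33.3% and 31.5% of the FPKM summed over the 37 members. The next in order were Ube2d3 (166 and 162) and Ube2v1 (156 and 158), and these 4 stood in the same order in both libraries. Without replicates it cannot be said which neighbours in that order differ beyond their spread, and 82.2% of the 31-base words of the Ube2v1 transcript occur in transcripts of other genes, so its level is uncertain. The share was at least 20% in 4 members, Ube2q2 (24.9%) and Ube2e1 (21.5%) among them, 19.7% in Ube2c, and under 10% in 22.

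The log2 ratio of Ube2c was -0.24, and -0.06 both at equal sums and with the trend with transcript length described below removed (-0.19 with the longest transcripts). That of Ube2s was -0.05, turning to 0.12 at equal sums and to 0.08 once the length trend was removed. The genes nearest in level had a median of -0.16 for Ube2c and -0.19 for Ube2s as deposited. Ube2c thus lay below the median of its neighbours and Ube2s above. Among ligase subunits of the same complex, Anapc11, the RING subunit, was at 32.2 and 24.5 (-0.39) and Anapc2 at 42.8 and 35.0 (-0.29). Anapc10 was at 8.34 and 7.61 (-0.13), Fzr1 at 58.6 and 56.3 (-0.06) and Cdc20 at 218 and 212 (-0.04). Of 19 mitotic genes, 1 was at least 1.5-fold lower, Cdk1 (83.3 to 52.0), and 0 were higher, against 6.46% and 7.77% of all genes. Their median was -0.19, with 15 of 19 below 0 (5912 of 11927 genes). At equal sums it was -0.02, with 10 below 0 (3489 of 12014 genes) and 0 at least 1.5-fold lower (3.87% of genes). With the length trend removed it was -0.19, with 17 below 0 (5758 of 11378 genes) and 2 at least 1.5-fold lower (5.91%). The ratios ran from -0.68 for Cdk1 to 0.23 for Mki67, a span that also holds most members past the floor, Ube2s and Ube2c among them.

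Among the members that build chains or single marks with many ligases, the Rad6 type pair, which puts ubiquitin on histone H2B and on the replication clamp PCNA, was higher in the USP21 shRNA library. Ube2a was at 24.5 and 27.7 (log2 ratio 0.17) and Ube2b at 41.3 and 49.0 (0.25). With the length trend removed they stood at 0.25 and 0.32. At equal sums, which raises every ratio, they stood at 0.35 and 0.42 beside a median of 0.18 for all genes. Both differences lay inside the ranges of their neighbours, which for Ube2b ran from -0.49 to 0.55. Of the ligases that use this pair, Ubr4, an N-degron ligase, was at 23.5 and 35.9 and was the one ligase of 45 past the floor that reached 1.5-fold (0.61). Over all genes 7.77% were 1.5-fold higher as deposited. With the length trend removed 0 of the 45 ligases were 1.5-fold higher, against 7.11% of all genes. At equal sums 3 of the 45 were, against 14.2%. Ubr2 stood at 0.33, Ubr1 at 0.26 and Rad18, the PCNA ligase, at 0.24. Rnf20 and Rnf40, which form the H2B ligase, stood at 0.09 and -0.16.

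The Ube2d genes encode the least selective E2s and supply ubiquitin to the H2A ligase Ring1-Rnf2. Ube2d3 had a log2 ratio of -0.03, Ube2d1 (17.2 and 16.7) of -0.04 and Ube2d2a (87.8 and 75.7) of -0.21, and at equal sums Ube2d1 and Ube2d3 lay above 0 and Ube2d2a below. In the annotation 17.0% of the 31-base words of Ube2d2a and 12.3% of those of Ube2d3 occur in other genes. Summed with Ube2d2b, these genes were at 271 and 254 (-0.09). Rnf2 stood at 75.6 and 54.0 (-0.48) and Ring1 at 8.56 and 9.03 (0.08). The related Ube2e genes gave 30.9 and 34.2 for Ube2e1 (0.14), 5.08 and 4.45 for Ube2e2 (-0.19) and 37.1 and 35.0 for Ube2e3 (-0.08). In the annotation 51.0% of the Ube2e1 transcript overlaps exons of Nkiras1 on the other strand, and whether reads were counted by strand is not given in the sources used here.

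**Figure D2:**
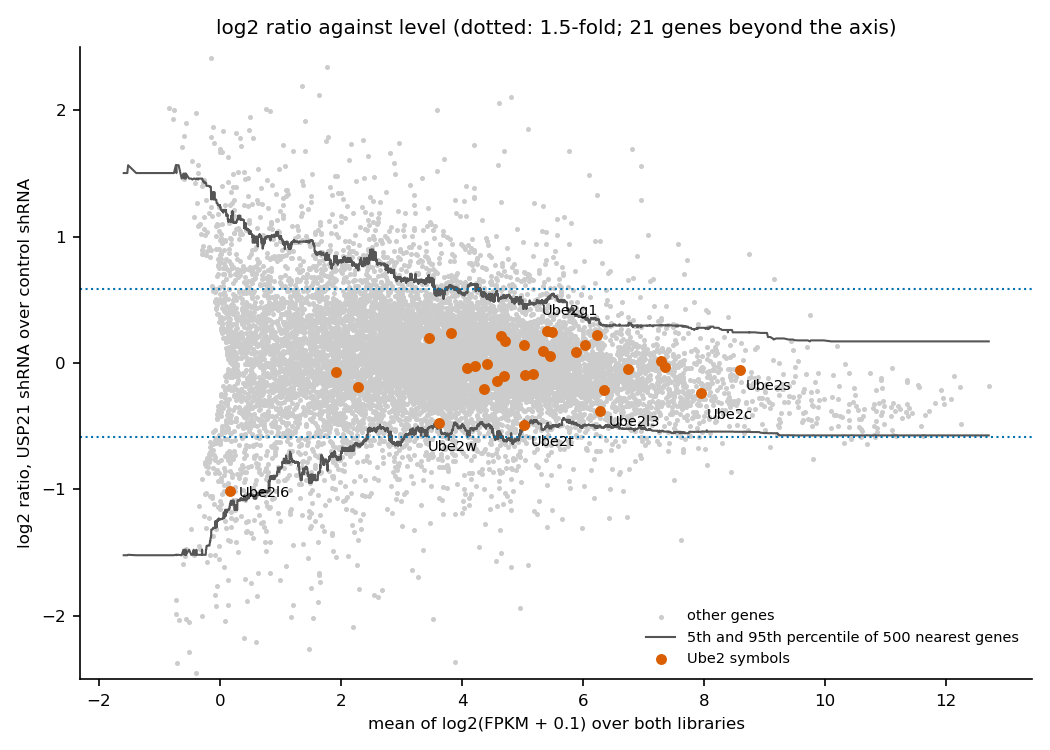
Log2 ratio of USP21 shRNA over control against mean log2(FPKM + 0.1) for genes past the floor (grey) and the 32 Ube2 symbols (orange), with the 5th and 95th percentile of the 500 nearest genes (lines) and 1.5-fold (dotted); 21 genes lie beyond the axis. The members form a narrow band around 0, Ube2t sits just under the lower line, Ube2w just above it, and Ube2l6 lies far down where the lines are widest apart.

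Ube2t showed the only ratio outside the range of its neighbours. It was at 38.7 in the control and 27.4 with the USP21 shRNA, 29.1% lower, a log2 ratio of -0.49 where the neighbours ran from -0.47 to 0.47. Ube2t works with the ligase Fancl to put a single ubiquitin on Fancd2 and Fanci in the Fanconi repair of DNA crosslinks. Those partners stood at -0.01 for Fancl (21.4 and 21.2), -0.02 for Fancd2 and 0.29 for Fanci. The gene lies on chromosome 1 from 134962565 to 134974162 (GRCm38, plus strand) and shares no 31-base word with other genes. Its chosen transcript is short, at 1116 bases, and with the trend with length removed its ratio was -0.34, inside a range of -0.45 to 0.47, and 0 of 32 members were outside.

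Ube2w, which attaches ubiquitin to the amino terminus of proteins, was at 14.5 and 10.4, 28.3% lower. Its log2 ratio of -0.48 lay just inside its range, which began at -0.49. It lies on chromosome 1 from 16540790 to 16619489 (minus strand), 18.8% of its 543-base transcript overlaps an exon of Gm38342 on the other strand, and with the length trend removed it stood at -0.18 when the transcript with the longest coding sequence (543 bases) was used and at -0.42 with the longest transcript (2181 bases). The Ube2q genes, larger enzymes of little known function, stood at -0.10 for Ube2q1 (34.1 and 31.9) and -0.02 for Ube2q2 (18.6 and 18.3).

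Ube2l3 works with ligases that first take ubiquitin onto themselves, those of the HECT and RBR classes. It was at 88.1 and 67.7, 23.2% lower (-0.38), inside a range of -0.50 to 0.31, and it stood at -0.37 with the length trend removed and -0.20 at equal sums. Pseudogene copies share 31-base words with its transcript, 15.2% of them in all with other genes. Its ligases lay on both sides of 0. The HECT ligase Ube3a stood at 14.4 and 20.6 (0.51) and the RBR ligases Arih2 at 0.29, Arih1 at 0.0084, Rnf31 at -0.14 and Rbck1 at -0.34.

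The E2s of endoplasmic reticulum-associated degradation, which removes misfolded secretory proteins, and their relative Ube2g1 mostly lay above 0. Ube2g1 had the highest ratio of the 32 members as deposited, at 38.9 and 46.5 (0.26). With the length trend removed it stood at 0.21, and Ube2b was highest at 0.32. Ube2g2 was at 23.1 and 26.8 (0.21), Ube2j1 at 10.1 and 11.7 (0.20) and Ube2j2 at 26.8 and 24.99 (-0.10, above 0 at equal sums). Ligases of this route gave values on both sides, from March6 at 0.43 and the adaptor Sel1l at 0.32 to Syvn1 at -0.17 and Rnf139 at -0.27.

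Ube2k, which builds chains without help, was at 43.0 and 44.8 (0.06), and Ube2r2, an E2 of cullin ligases, at 25.1 and 22.8 (-0.14). Ube2h, the E2 of the CTLH ligase, was at 12.9 and 15.3 (0.24), and of the ligase's subunits Maea was at 88.9 and 106 (0.26), Rmnd5a at 27.1 and 28.8 (0.08) and Ranbp9 at 16.6 and 16.7 (0.0092). For the chains used in DNA damage and inflammatory signalling, the enzyme Ube2n was at 62.3 and 68.7 (0.14) and its inactive partners Ube2v1 and Ube2v2 stood at 0.02 and -0.21. Ube2v2 was at 22.02 and 19.1, and the sum of both partners was 178 and 177. Ube2z, which is charged by the second ubiquitin E1 Uba6, was at 69.5 and 80.9 (0.22), and Uba6 at 14.5 and 14.5. Ube2o, which combines E2 and E3 activity in 1 large protein, was at 21.2 and 21.1 (-0.0074). Ube2cbp, the ligase, was at 3.80 and 3.61 (-0.07).

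Members that carry other modifiers could be set beside their activating enzymes and their modifier. For NEDD8, the modifier that activates cullin ligases, Ube2m was at 57.4 and 61.2 (0.09) and Ube2f at 39.2 and 41.9 (0.09). Of its E1, Uba3 was at 44.6 and 42.8 (-0.06) and Nae1 at 32.2 and 27.2 (-0.24). Nedd8 itself was at 236 and 175 (-0.43), inside its neighbours' range of -0.55 to 0.29.

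Ube2l6, the E2 of the interferon-induced modifier ISG15, was the only member past 1.5-fold. It was at 1.49 in the control and 0.689 with the USP21 shRNA, a log2 ratio of -1.01, and it passed the floor only through the control library. Among genes of such low level this lay inside the neighbours' range of -1.12 to 1.13, and with 1 added in place of 0.1 the ratio was -0.56, short of 1.5-fold. The gene is on chromosome 2 from 84798828 to 84810335 (GRCm38, plus strand). The rest of this system was as low, with Isg15 at 0.998 and 0.741, the E1 Uba7 at 0.016 and 0.050 and the ligase Herc6 at 0.162 and 0.190. Of 11 interferon-response genes 3 were past the floor, and none of them was 1.5-fold apart. Bst2 was at 58.7 and 70.1, and Usp18, at 0.794 and 1.05, passed only through the USP21 shRNA library.

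**Figure D3:**
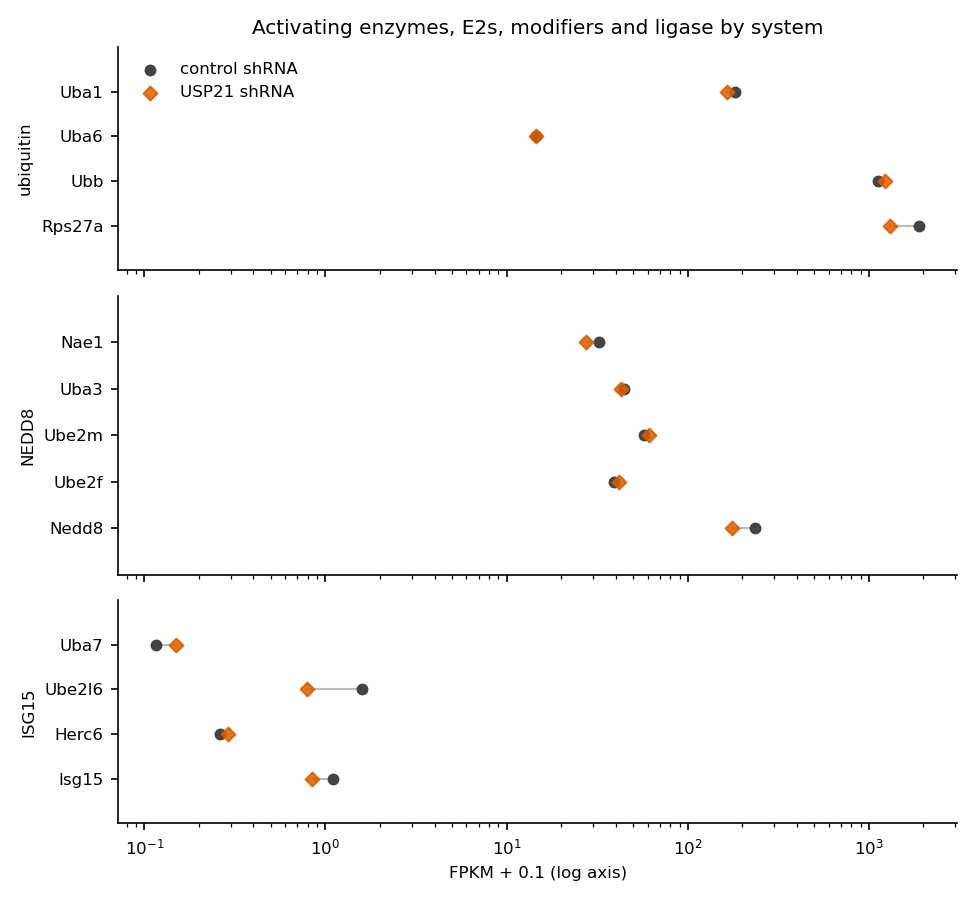
FPKM plus 0.1 (log axis) in the control shRNA (dots) and USP21 shRNA (diamonds) libraries for activating enzymes, E2s, modifiers and, for ISG15, the ligase, in 3 systems, for a selection of genes. No E2 is shown for the ubiquitin system. The E2s Ube2m and Ube2f sit within 1.1-fold, and the ISG15 system lies near or under 1. Of the other modifier genes, Nedd8 and Rps27a sit lower with the USP21 shRNA and Ubb sits higher.

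Across the E1 enzymes and subunits, 9 of 10 listed were past the floor and none reached 1.5-fold in either direction. Of all genes 6.46% were that much lower and 7.77% higher. All 9 lay within 1.2-fold, against 55.9% of all genes, with a median of -0.12 that was 0.05 at equal sums. Uba1, which charges most ubiquitin E2s, was at 183 and 165 (-0.14). The 7 E2s with other symbols were all past the floor and none was called. Of these Cdc34, the cullin E2, was at 183 and 159 (-0.21), Birc6, an inhibitor of apoptosis, at 13.4 and 16.7 (0.31) and the autophagy enzyme Atg10 at 1.86 and 1.32 (-0.47). The ubiquitin and ubiquitin-like modifiers, of which 12 of 14 were past the floor, had a median of -0.30 (-0.13 at equal sums and -0.06 with the length trend removed) and none was called. The ubiquitin gene Ubb stood at 0.13 (1118 and 1225) and Rps27a, whose ubiquitin is fused to a ribosomal protein, at -0.54 (1886 and 1300.2). Of the 45 ligases past the floor 25 were above 0 and 20 below, with a median of 0.04. It was 0.21 with 40 above 0 at equal sums, where 8525 of 12014 genes were above 0, and -0.04 with the length trend removed.

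Proteasome subunit genes and ubiquitin-specific proteases were set beside the E2 genes. Proteasome subunit genes, 47 of 50 past the floor, had a median of -0.17 with 35 below 0, 0.0091 with 22 below 0 at equal sums and -0.09 with the length trend removed. Ubiquitin-specific proteases, 49 of 56 past the floor, had a median of 0.15 with 34 above 0. It was 0.32 with 43 above 0 at equal sums and 0.00086 with the length trend removed. Of all genes, 6015 were above 0 and 5912 below as deposited, and 8525 above and 3489 below at equal sums. Within 1.2-fold were 30 of the 47 and 31 of the 49, where the E2 genes had 28 of 32, but at equal sums the counts were 41 of the 47, 19 of the 49 and 18 of the 32, so the order of proteasome and E2 genes turned with the scale. No test of these differences was made.

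Ratios were higher for longer transcripts over all genes, and the members' ratios ran loosely the same way. The Spearman rho between log2 ratio and the length of the transcript was 0.32 over 11378 genes and 0.36 over the 32 members, or 0.27 over members with each gene's longest transcript. These are descriptions across genes, which share both libraries. The median was -0.27 in the 569 genes of the shortest group, with a median length of 693 bases, and 0.29 in the 569 of the longest, at 9305 bases. The 16 members with the shorter transcripts had a median of -0.05 and the 16 with the longer -0.02, against -0.11 and 0.07 for all genes on the same sides of 2364.5 bases. Removing the trend gave the members a median of -0.03 and left 27 of 32 within 1.2-fold, against 59.7% of all genes. With the longest transcripts it left 24 of 32, against 59.9%.

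**Figure D4:**
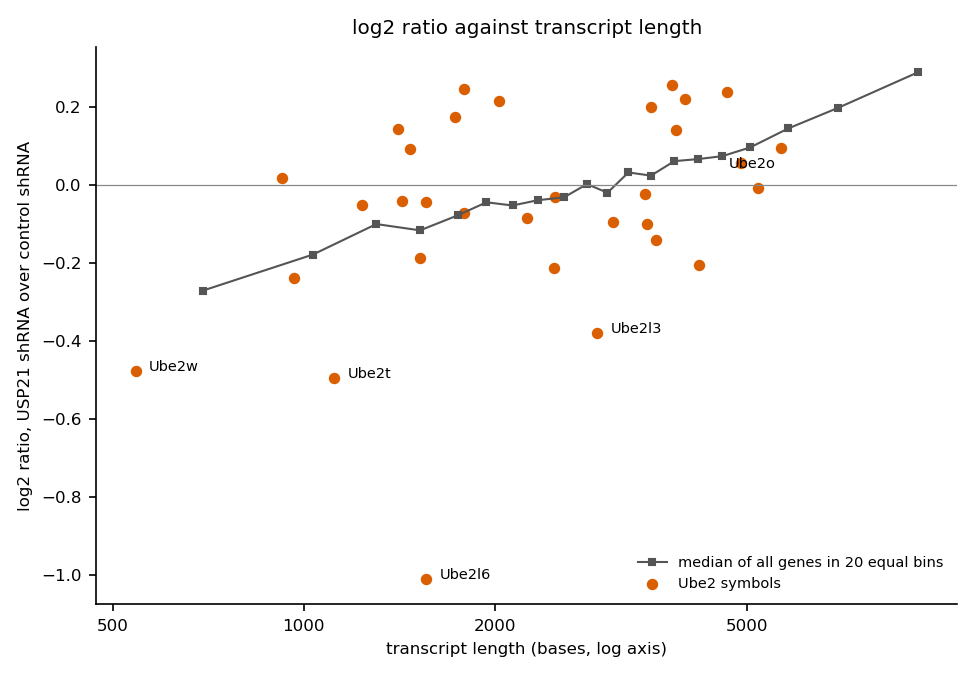
Log2 ratio of USP21 shRNA over control against transcript length (bases, log axis) for the 32 Ube2 symbols (orange) and the median of all genes in 20 groups of about equal size by length (grey squares). The grey line climbs from -0.27 to 0.29, the members scatter about it, and Ube2t, Ube2l3 and Ube2l6 lie well under it.

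The 5 members under the floor had very low values in both libraries, and no fold is given for them. Ube2dnl1 was at 0.273 and 0.859, Ube2d2b at 0.202 and 0.028, Ube2ql1 at 0.175 and 0.089, Ube2dnl2 at 0.069 and 0, and Ube2u at 0 and 0.076. Ube2dnl1 and Ube2dnl2 are neighbouring copies on chromosome X, and 19.8% of the 31-base words of each are shared with the other, so their reads can be hard to assign. The 5 are counted among the 37 members but not among the 32.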

How the data were processed

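One control shRNA library and one USP21 shRNA library of E14 cells were analysed. Values are FPKM as the authors deposited them, with each symbol present once. The submitters' processing notes name CASAVA 1.8.2, TopHat2 2.0.14, Cufflinks 2.2.1 and the build mm9, with no role or order. The annotation is not given in the sources used here, and the paper's methods do not describe this sequencing.

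The log2 ratio was that of the FPKM values with a pseudocount of 0.1, for genes reaching FPKM 1 in either library. With 1 library per group no test or p-value was possible, so a gene was called at 1.5-fold and set beside the 500 genes nearest in mean log2 level. Results for 1 member and some list genes are not reported here, though counts and medians include them, and all other members are given. Singled out were those called, the 5 highest and 5 lowest ratios and the 5 highest control levels. Of the pathway lists, called genes, at most the 4 with the largest ratios and the partners of an E2 were to be named, and a few more were named after their values had been seen. Cdc34b and Ube1y1 were listed but matched no symbol. The members and lists were chosen with earlier results of these data known.

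Sequences, positions and lengths were read from GENCODE M21 (GRCm38, not the build of the files), taking for each gene the transcript whose coding sequence is longest (95.4% of genes past the floor had one). The length trend was fitted by lowess (span 0.3). Alternatives were pseudocounts of 1 and 0.01, no floor or a floor of 5, equal sums (TPM), a median of 0, removal of the length trend, near-identical members summed, and leaving out Ube2cbp. The scripts were tested on simulated data. Tools were Python 3.11.15 with statsmodels 0.14.6, pandas 2.3.3, Biopython 1.88, matplotlib 3.10.9, numpy 2.4.6 and scipy 1.17.1.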

Additional observations from a re-analysis of the deposited data

How the results depend on the processing

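The median log2 ratio of the members moved by less than 0.1 under every alternative but equal sums, where it was 0.138. The count of members at least 1.5-fold lower, 1 as reported, was 0 with a pseudocount of 1, against 4.29% of all genes. It was 3 of 37 without a floor, against 8.42%, and 0 with a floor of FPKM 5, against 4.62%. The count higher, 0 as reported, was 2 of 37 without a floor, against 9.67%. The members gained without a floor are all under FPKM 1. The count within 1.2-fold, 28 as reported, was 18 at equal sums, and 22 to 28 under the others, the 22 being of 26 when near-identical members were summed. The count outside the range of the nearest genes was 0 with the length trend removed, by either choice of transcript, and this last setting and both of these counts were chosen after seeing the data. Of 14 named members 3 changed sign under an alternative. Among them were Ube2d3 (0.14) at equal sums and Ube2s at equal sums (0.12) and with the length trend removed (0.08, or 0.09 with the longest transcript). Most of the 14 were singled out for extreme ratios, so this count does not describe the other members. Over all 32, the members above 0 were 13 as deposited and 24 at equal sums. No paired analysis was possible because each group is 1 library. Without counts, depth gives no interval or detection limit here, and it limits most the members near or under FPKM 1.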
